A study of Mus musculus with 6 samples.

Results

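The ribosomal proteins of the cytosol and their paralogues were described in C2C12 cells, a mouse myoblast line, with and without 5-azacytidine (5AC), which cells incorporate into nucleic acids in place of cytidine and which traps DNA methyltransferases. Members were all probe sets whose only gene symbol in the platform annotation was Rps, Rpl or Rplp followed by a number and, where present, one of the suffixes of the gene family, so that ribosomal protein kinases and genes named as pseudogenes were left out. The rule gave 103 of 45037 probe sets, of 48 genes among the 18193 genes measured. Of these, 42 genes with 93 probe sets were canonical ribosomal proteins and 6 genes with 10 probe sets were paralogues, namely Rps4l, Rpl39l, Rpl7l1, Rps27l, Rpl22l1 and Rpl3l. The rule used names only and no measured value.

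Ribosomal proteins assemble with ribosomal RNA into a small and a large subunit, whose numbered members are called Rps and Rpl in the mouse, while the Rplp proteins form the stalk of the large subunit that recruits translation factors. Their mRNAs are among the most abundant in a growing cell and mostly begin with a cytosine and a run of pyrimidines, the TOP motif, through which mTOR signalling controls their translation. Most are encoded by 1 active gene that left many processed pseudogenes in the genome, but a few have an expressed paralogue, often with a restricted tissue pattern, such as Rpl3l in skeletal muscle and heart and Rpl39l in male germ cells.

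RNA was measured on 6 Affymetrix mouse genome arrays. Cells of both groups were plated at 1500 cells per cm2 in DMEM with 10% newborn calf serum and left for a day. The 3 untreated arrays then had 3 more days in this medium, and the 3 5AC arrays had the same with 10 µM 5AC. The labels name the untreated cells as subconfluent and leave unsaid if each replicate was grown on its own. The p-values therefore reflect only how far these arrays vary, a spread that may be technical. All cells are of 1 immortalised line.

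The arrays had similar levels, with medians of 20.3 to 21.0 and highest values of 10921 to 11818. Myoblast genes were present in all 6 arrays, with a summed intensity over 5 markers of 3049 to 3298 in untreated and 2262 to 2319 in 5AC arrays, and 4 of the 5 fell. Of 6 markers of differentiated muscle, 5 rose, from a sum of 1003 to 1264 to one of 3242 to 3589. All 5 germ cell markers (Dazl, Ddx4, Mael, Tex19.1, Sycp3) rose, from a sum of 44.9 to 64.0 to one of 981 to 1088, and so did 2 of 4 epithelial markers (Krt8, Krt18) and 1 of 4 leukocyte markers (Fcer1g). None of 4 endothelial markers and none of 3 adipocyte markers passed the test; at an unadjusted p under 0.05 both counts were 0 as well. In these bulk samples a change in the number of cells of a type and a change in RNA per cell cannot be told apart.

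Rps4l and Rpl39l rose by 6.93 and 3.75 on the log2 scale, Rpl7l1 rose by 0.29 and Rpl22l1 fell by 0.45, while Rps27l and Rpl3l did not pass the test. Thus 3 of 6 paralogues were higher and 1 was lower (adjusted p under 0.05 in limma, two-sided, over all genes), where 15.5% of all genes were higher and 13.8% lower (29.3% in all). Of the 42 canonical genes 2 were higher and 3 lower, and none moved by 0.5.

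Promoter sequence was taken from RefSeq (assembly GRCm38.p6) as windows of 300 bases, 250 before and 50 after a start. Of the 48 member genes, 42 had a window, and Rpl7, Rpl8, Rps14, Rps20, Rps29 and Rps4l had none. The parts before the start are shown for the paralogue with a window and the largest change, for its parent, and for the muscle paralogue, so that their CG dinucleotides, at which DNA methyltransferases act, can be compared. The stretch of Rpl39l is shorter because it ends where the earliest start of the gene lies in the RefSeq table. Capitals mark each CG.
Rpl39l, chr16:10169978-10170196, plus strand: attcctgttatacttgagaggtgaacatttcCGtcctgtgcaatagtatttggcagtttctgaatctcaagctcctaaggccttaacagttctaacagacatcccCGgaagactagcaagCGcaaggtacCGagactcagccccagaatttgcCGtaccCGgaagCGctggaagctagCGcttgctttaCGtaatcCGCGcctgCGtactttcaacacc
Rpl39, chrX:37085223-37085472, minus strand: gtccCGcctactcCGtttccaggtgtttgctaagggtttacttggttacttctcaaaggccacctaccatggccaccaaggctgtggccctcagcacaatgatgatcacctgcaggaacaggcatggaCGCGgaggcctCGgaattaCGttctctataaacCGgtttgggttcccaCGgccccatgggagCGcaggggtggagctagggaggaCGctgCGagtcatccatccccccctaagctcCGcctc
Rpl3l, chr17:24727576-24727825, plus strand: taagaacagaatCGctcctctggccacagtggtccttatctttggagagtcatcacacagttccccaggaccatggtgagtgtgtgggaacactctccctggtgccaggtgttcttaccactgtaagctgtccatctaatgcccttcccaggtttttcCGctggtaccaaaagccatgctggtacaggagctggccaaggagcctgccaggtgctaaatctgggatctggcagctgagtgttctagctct

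The stretches shown hold 12 CG in 219 bases of Rpl39l, 12 in 250 bases of Rpl39 and 2 in 250 bases of Rpl3l. Over whole windows, Rpl39l and Rpl39 had 17 CG each. The 43 windows of canonical genes held 8 to 39 CG with a median of 22, against a median of 7 over all 32851 windows. Among the other paralogues, Rpl7l1 had 16, the 2 windows of Rps27l had 24 and 29, Rpl22l1 had 30, and the 2 windows of Rpl3l had 2 and 3. DNA methylation was not measured here.

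**Figure D1:**
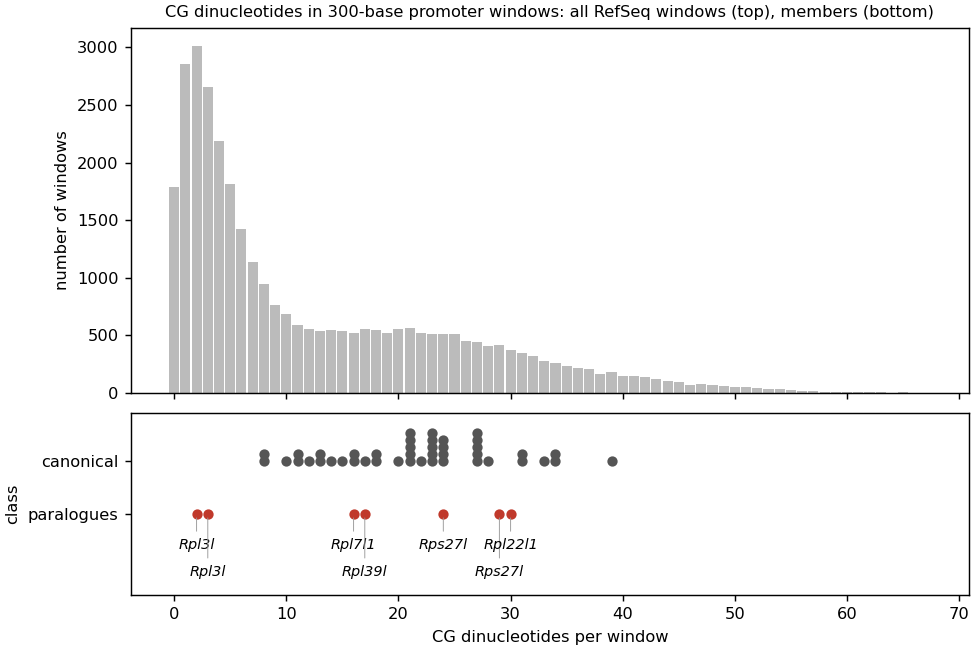
The upper panel counts all RefSeq promoter windows of 300 bases by the number of CG dinucleotides they hold, and the lower panel shows each window of a canonical gene (grey) or paralogue (red) on the same axis. Canonical windows lie between 8 and 39 CG, and the 2 windows of Rpl3l hold 2 and 3.

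Motifs were searched on both strands of the windows, except the start motif. The letters CCGGAA, the core of sites of ETS factors, were in 55.8% of the canonical windows against 14.9% of all windows. GGGCGG, an SP1-type GC box, was in 53.5% against 35.7%. AAGATGGC, a YY1-type site, was in only 3 of the 43 canonical windows (6.98%), against 2.75% of all windows. A C exactly at the start followed by 4 pyrimidines, as in the TOP motif, was in 8 of the 43 canonical windows (18.6%) and in 2.51% of all windows. Only the annotated start base was searched, so a motif at a start annotated slightly off is missed. The share is therefore not a count of genes with a TOP motif. CCGGAA was also in 3 of the 7 paralogue windows (42.9%), those of Rpl39l and Rpl7l1 and the Rps27l window with 24 CG. The window of Rpl39, counted among the canonical ones, held it too. CG-rich windows can hold the CG-containing motifs more often by composition alone, which was not adjusted for, and a match is a run of letters, not a bound site.

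Rps4l is the paralogue of Rps4x, the small subunit protein encoded on the X chromosome, and the RefSeq table lists it as a transcribed pseudogene. Its only probe set read 0.6, 1.6 and 1.6 in the untreated arrays and 272.1, 256.4 and 276.8 in the 5AC arrays. The untreated values lay near 0 and below all 5AC values, and no array departed from its group. The change of 6.93 ± 0.23 (SE, n = 3 a group, limma adjusted p = 0.00027) is on the log2(intensity + 1) scale, on which dim values weigh heavily; with 16 added in place of 1 it was 4.04. The parent Rps4x read 6670.1, 6646.1 and 6591.5 untreated and 6779.4, 6623.9 and 6912.1 with 5AC, ranges that overlap, and changed by 0.03 ± 0.05 (limma adjusted p = 0.72).

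The genes next to Rps4l on the chromosome were looked at beside it. Of the nearest 2 measured genes on each side, Ipo8, an importin, rose by 0.21 ± 0.05 (limma adjusted p = 0.032). Tmtc1 (0.09 ± 0.65), 4930528G23Rik (−0.46 ± 0.17) and 4732416N19Rik (0.30 ± 0.26) did not pass the test, all with mean intensities under 15 in both groups.

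Rpl39l encodes a variant of Rpl39, a small protein that lines the exit tunnel of the ribosome. It read 22.8, 22.6 and 23.4 in untreated arrays, and 315.6, 316.9 and 333.1 with 5AC. Each group was tight and the groups lay far apart, with a change of 3.75 ± 0.05 (SE, n = 3 a group, limma adjusted p = 9.6e-05), or 3.12 with 16 added. Rpl39 read 364.7, 362.5 and 337.8 untreated and 322.2, 321.9 and 313.3 with 5AC. All 3 of its 5AC values were below the untreated ones, yet the change of −0.15 ± 0.06 did not pass the test (limma adjusted p = 0.11). The germ cell markers given above rose beside Rpl39l, among them Dazl (from 7.67 ± 1.82 to 336 ± 28.0, SD, n = 3), an RNA-binding protein of germ cells, and Ddx4 (from 3.36 ± 0.61 to 101 ± 6.79), a germ cell helicase. Their part in the result was not tested.

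The measured genes beside Rpl39l were also looked at, the nearest 2 on each side. Emp2, a membrane protein gene, fell by 1.15 ± 0.08 on the log2 scale (limma adjusted p = 0.001), and Grin2a (0.08 ± 0.36), Atf7ip2 (0.24 ± 0.20) and 1810013L24Rik (−0.07 ± 0.07) did not pass the test.

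Rpl7l1, a paralogue of Rpl7 found in early large-subunit precursors, rose in all 3 of its probe sets. The brightest read 718.8, 689.8 and 708.5 untreated and 883.4, 854.1 and 860.0 with 5AC, without overlap, a change of 0.29 ± 0.05 (SE, n = 3 a group, limma adjusted p = 0.011). The other 2 probe sets rose by 0.51 and 0.49. Rpl7 itself read 6732.5 to 6854.0 untreated and 6750.2 to 6876.2 with 5AC and changed by 0.0032 ± 0.05.

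Rpl22l1 is the paralogue of Rpl22, whose protein is known to hold down the Rpl22l1 transcript. Rpl22l1 read 2010.0, 2039.8 and 2027.2 untreated and 1494.2, 1508.2 and 1457.8 with 5AC. It fell by 0.45 ± 0.05 on the log2 scale (SE, n = 3 a group, limma adjusted p = 0.0027), with narrow groups that lay well apart. The brightest probe set of Rpl22 read 5739.4 to 5843.7 untreated and 5737.6 to 5889.6 with 5AC, an overlap, with a change of 0.0020 ± 0.05. The probe sets of Rpl22 differed, as described further on.

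Rps27l, the paralogue of Rps27, is a known target of p53. It read 2699.8, 2608.8 and 2536.2 untreated and 2874.7, 2849.4 and 2774.1 with 5AC. All 5AC values were higher, but the change of 0.12 ± 0.05 did not pass the test (limma adjusted p = 0.18). Its other 2 probe sets changed by 0.06 and 0.07 with overlapping groups. Rps27 read 578.0 to 638.6 untreated and 609.7 to 648.7 with 5AC and changed by 0.06 ± 0.06.

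Rpl3l was dim throughout, at 7.1, 10.3 and 8.9 untreated and 4.9, 6.0 and 6.3 with 5AC. These values lie below the array medians, and the change of −0.53 ± 0.15 did not pass the test (limma adjusted p = 0.054); with 16 added it was −0.19. In the same arrays the muscle genes Myog, a myogenic transcription factor, and Myh3, embryonic myosin, rose by 1.47 ± 0.11 and 2.53 ± 0.14. Its parent Rpl3 had no probe set with a single symbol.

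**Figure D2:**
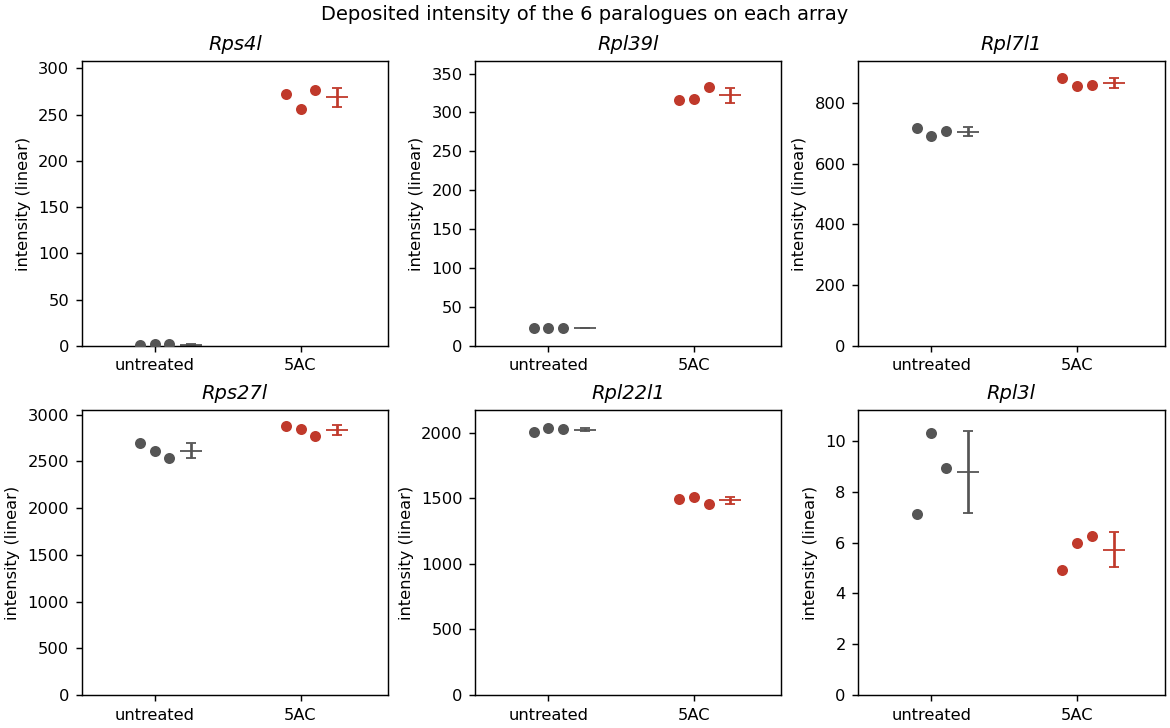
Deposited intensity (linear scale, from 0) of the brightest probe set of each paralogue on the 3 untreated (grey) and 3 5AC (red) arrays, with the group mean and SD beside the points. Rps4l goes from 1.27 to 268 on average and Rpl39l from 22.9 to 322, Rpl7l1 and Rps27l are higher and Rpl22l1 and Rpl3l lower on every 5AC array.

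Each paralogue was set against its parent array by array, as the difference of their log2 values, in 5 pairs. The change of Rps4l exceeded that of Rps4x by 6.90 (4.01 with 16 added, since the untreated values near 0 let the offset set the size), that of Rpl39l exceeded Rpl39 by 3.91, and that of Rpl7l1 exceeded Rpl7 by 0.29. For Rpl22l1 the change was below that of Rpl22, with a difference of −0.45. In these 4 pairs the groups did not overlap, which gives an exact permutation p of 0.1, two-sided, the smallest that 3 against 3 arrays allow, and 0.125 adjusted over the 5 pairs. For Rps27l and Rps27 the difference was 0.06 (exact permutation p = 0.4), no larger than the SD of that difference among the untreated arrays (0.06).

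The canonical genes stayed close to their untreated intensities. Their median log2 change was −0.0077 against 0.012 over all genes, a value whose sign turned with cyclic loess scaling (0.048) and without 5AC array 2 (0.0051) or untreated array 3 (0.0008). The middle of their distribution ran from −0.10 to 0.04, where that of all genes ran from −0.28 to 0.30. Of the 42 genes, 28 (66.7%) changed by less than 0.1 and 40 by less than 0.25, while 19% of all genes changed by less than 0.1. Their summed intensity on an array was 198633 to 200102 untreated and 198055 to 200756 with 5AC, which overlap. As a share of all intensity on the array this was 2.67% on each untreated array and 2.70% to 2.72% with 5AC, without overlap.

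The canonical genes were also bright, which bears on such a comparison, since dim probe sets vary more. Of the 42, 41 had a mean intensity of 200 or more. Of the 4743 genes at that level, 22.7% changed by less than 0.1, against 65.9% of the 41 canonical ones. The limit of 200 does not match the sets for intensity. The median of the mean intensities was 440 for the 4743 genes and 5777 for the 41. Whether probe sets this bright show a change of RNA in full was not tested. The comparison is a description and not a test of a difference.

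**Figure D3:**
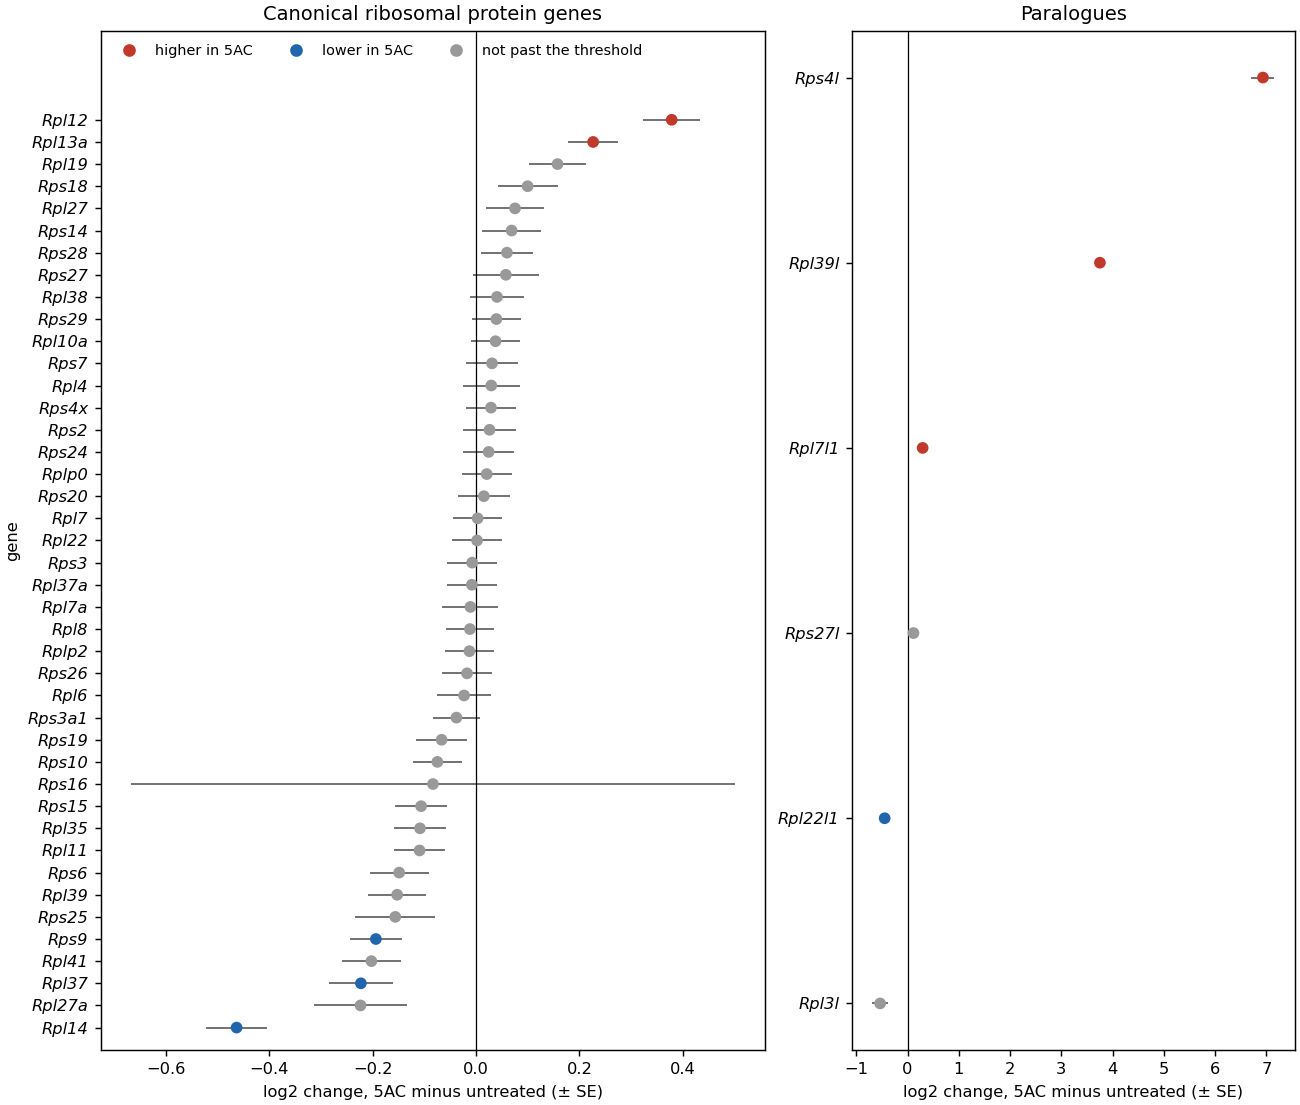
Log2 change, 5AC minus untreated, with its SE for the 42 canonical genes (left) and the 6 paralogues (right, on a wider axis). The canonical genes run from −0.46 (Rpl14) to 0.38 (Rpl12), with 28 within 0.1 of no change, and the paralogues from −0.53 (Rpl3l) to 6.93 (Rps4l).

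In the small subunit, 1 of 20 measured genes was lower and 0 were higher in limma, where 13.8% of all genes were lower and 15.5% higher. At an unadjusted p under 0.05, 0 were higher and 2 lower, and with a prior variance that follows the intensity 0 were higher and 4 lower (18.9% and 16.5% of all genes). In this subunit 3 genes had all 5AC values above and 6 had all below the untreated ones, where 24.1% of all genes lay fully above and 21.2% fully below (45.3% together). Rps9, a small-subunit protein, read 4163.2, 4225.0 and 4200.0 untreated and 3792.7, 3608.2 and 3608.2 with 5AC. It fell by 0.19 ± 0.05 on the log2 scale (SE, n = 3 a group, limma adjusted p = 0.041), and its other 2 probe sets changed by −0.14 and −0.23. Tested over all probe sets, none of its 3 sets passed, the brightest included (limma adjusted p = 0.12). Rps6, the substrate of S6 kinase, changed by −0.15 ± 0.06 (limma adjusted p = 0.12), with all 5AC values (226.4 to 243.2) below the untreated ones (255.5 to 270.1). Rps25, a protein used by some viral internal ribosome entry sites, changed by −0.16 ± 0.08 with overlapping groups. At the upper end, Rps18 (0.10 ± 0.06), Rps14 (0.07 ± 0.06), Rps28 (0.06 ± 0.05) and Rps27 had the largest positive changes, and none of them passed the test. Rps16 was covered only by a probe set at −0.7 to 2.1, near 0 on every array, and nothing is said of its level.

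In the large subunit, 2 of 20 genes were higher and 2 lower (10% each, against 15.5% and 13.8% of all genes). Rpl12, which binds at the base of the stalk, read 188.4, 194.2 and 184.3 untreated and 240.9, 241.2 and 255.9 with 5AC. It rose by 0.38 ± 0.06 (SE, n = 3 a group, limma adjusted p = 0.0069), and the groups did not overlap. Rpl13a, known also for its part in silencing inflammatory mRNAs, read 6340.2, 6299.6 and 6227.8 untreated and 7330.5, 7252.6 and 7497.5 with 5AC, a rise of 0.23 ± 0.05 (limma adjusted p = 0.021). Its other 3 probe sets changed by 0.19, −0.0068 and −0.06. Tested over all probe sets, none of the 4 passed, the brightest included (limma adjusted p = 0.071), and with the mean of the 4 sets the change of Rpl13a was 0.09 (adjusted p = 0.38).

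Rpl14, a large-subunit protein, had the largest fall of the canonical genes. It read 309.1, 335.2 and 307.4 untreated and 230.7, 225.6 and 232.6 with 5AC, and fell by 0.46 ± 0.06 on the log2 scale (SE, n = 3 a group, limma adjusted p = 0.0045). Rpl37, a zinc-binding protein of the same subunit, read 1286.1, 1353.3 and 1239.2 untreated and 1118.4, 1140.0 and 1064.3 with 5AC, a fall of 0.22 ± 0.06 (limma adjusted p = 0.049). In both genes every 5AC array was below every untreated array, and each has 1 probe set. Tested over all probe sets, the set of Rpl14 passed (limma adjusted p = 0.014) and that of Rpl37 did not (limma adjusted p = 0.11). The only sets of Rpl14 and Rpl12 have mean intensities of 273 and 217, against a median of 5765 over the canonical genes. Rps20, Rps24 and Rpl22 had dim sets that were called lower while their brighter sets were not, as described further on. Whether the sets of Rpl14 and Rpl12 read the main transcripts was not tested.

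The calls of Rpl13a, Rpl37 and Rps9 each were lost when any 1 of the 6 arrays was left out, with adjusted p of 0.058 to 0.072 for Rpl13a, 0.063 to 0.13 for Rpl37 and 0.075 to 0.12 for Rps9. With cyclic loess Rpl37 (adjusted p = 0.10) and Rps9 (0.12) were lost too, and Rpl37 was lost with quantile normalization (0.085).

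Further large-subunit genes did not pass the test. Rpl41 (−0.20 ± 0.06, limma adjusted p = 0.052), a very short basic peptide, Rpl27a (−0.22 ± 0.09, adjusted p = 0.14) and Rpl11 (−0.11 ± 0.05, adjusted p = 0.18), which binds Mdm2, each had every 5AC value below every untreated one. Rpl19 (0.16 ± 0.05, limma adjusted p = 0.091) and Rpl27 (0.08 ± 0.06, adjusted p = 0.39) had every 5AC value above. The stalk proteins Rplp0 (0.02 ± 0.05) and Rplp2 (−0.01 ± 0.05) had overlapping groups, with Rplp0 at 7514.4 to 7626.6 untreated and 7510.0 to 7790.6 with 5AC. Rpsa and Fau, ribosomal proteins under other names, changed by 0.03 ± 0.05 and −0.04 ± 0.06.

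The number of canonical genes called depended on how the spread was estimated. When the prior variance followed the intensity, 3 canonical genes were higher and 11 lower, where 18.9% of all genes were higher and 16.5% lower (35.5% in all). When only genes with a mean of 200 or more were fitted, the counts were again 3 and 11, of 41 canonical genes, where 35.9% of the 4743 genes were higher and 38.5% lower (74.3% in all). Rpl19 joined the higher genes in both, and Rpl11, Rpl27a, Rpl35, Rpl39, Rpl41, Rps15 and Rps6 joined the lower ones in both. The paralogue Rps27l passed in both as well (adjusted p = 0.016 and 0.026).

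Probe sets of a gene can cover different transcript ends or be shared with copies elsewhere in the genome, and 40 of the 103 member probe sets carry the suffix x and 28 the suffix a, which Affymetrix gives to sets that can detect related sequences or several transcripts of a gene. Tested over all 45037 probe sets, 6 member probe sets were higher and 6 lower, where 8.15% of all probe sets were higher and 8.75% lower (16.9% in all). Of the 93 canonical probe sets 1 was higher (Rpl12) and 5 were lower. No gene had probe sets called in opposite directions.

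Of the 5 lower ones, 4 belonged to genes with a brighter set that did not pass the test. Rps20, a small-subunit protein, had dim sets at 34.4, 40.6 and 46.2 untreated against 16.3, 16.4 and 17.1 with 5AC (−1.22 ± 0.12, limma adjusted p = 0.0047) and at 54.8 to 61.0 against 23.9 to 30.1 (−1.10 ± 0.11). Its 2 bright sets, at mean intensities of 8014 and 5157, changed by 0.02 and 0.05. Rps24 had a set at 278.4, 275.4 and 280.8 untreated and 185.6, 186.0 and 195.1 with 5AC (−0.56 ± 0.06), against −0.08 to 0.02 in its 4 sets with means of 3377 to 6801. Rpl22 had a set at 260.9, 240.1 and 214.4 untreated and 173.2, 168.8 and 175.3 with 5AC (−0.46 ± 0.10), against −0.07 and 0.0020 in the others. The fifth was the set of Rpl14. Whether these sets read other transcripts was not tested.

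**Figure D4:**
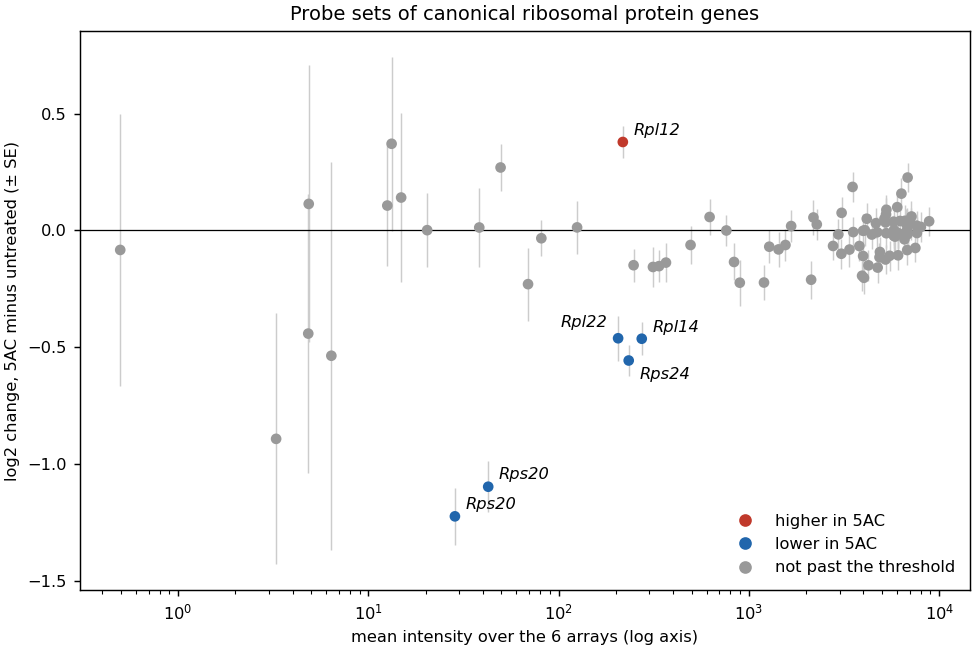
Log2 change, 5AC minus untreated, with its SE for each of the 93 probe sets of canonical genes against its mean intensity over the 6 arrays (log axis). The called sets, 1 higher (Rpl12) and 5 lower, all have means under 300, and the brightest sets lie close to 0.

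Of 76 canonical genes looked for, 34 had no probe set with a single symbol, among them Rplp1 and Rpl5, which binds Mdm2 with Rpl11. A further 110 probe sets carried several symbols with at least 1 of a canonical gene. Their genes are not named here; 0 of them were higher and 6 lower in limma (0 against 8.15% and 5.45% against 8.75% of all probe sets), or 2 and 9 at an unadjusted p under 0.05. Of the 110, 23 had all 5AC values above and 26 all below the untreated ones, where 18.3% and 18.5% of all probe sets did so, and their median log2 change was −0.0054.

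The ribosomal proteins of mitochondria, which share the name but make up another ribosome, spread more widely. Of 76 such genes 23 were higher and 17 lower (30.3% and 22.4%, against 15.5% and 13.8% of all genes and 25.1% and 28.1% of those with a mean of 200 or more in the same fit), with a median log2 change of 0.05 and a range of −0.82 to 0.71, and 19.7% of them changed by less than 0.1. They were dimmer than the cytosolic set, with a median mean intensity of 478, and the difference in spread was not tested.

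Genes with roles around the cytosolic set were taken from lists. Of 13 measured translation factors and related genes whose mRNAs carry a TOP motif, 3 rose and 1 fell (23.1% and 7.69%, against 15.5% and 13.8% of all genes), with a median of 0.06. Nap1l1, a histone chaperone, fell by 0.38 ± 0.05 on the log2 scale, Eif4b rose by 0.32 ± 0.05 and Eif3e, an initiation factor subunit, by 0.29 ± 0.05 (limma adjusted p = 0.0046, 0.01 and 0.013). The very abundant factors Eef1a1 (0.06 ± 0.05) and Eef2 (0.0020 ± 0.06) did not pass.

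Of 12 genes of mTOR and Myc control, 4 rose and 2 fell (33.3% and 16.7%, against 15.5% and 13.8% of all genes), with a median of 0.19. Tsc1, an inhibitor of mTOR complex 1, rose by 0.50 ± 0.08 (from 102 ± 7.77 to 145 ± 8.34, SD, n = 3), Myc, which drives transcription of ribosomal genes, by 0.46 ± 0.08 (from 233 ± 16.7 to 321 ± 20.3), and Akt1s1, a further inhibitor, by 0.34 ± 0.09. Their limma adjusted p-values were 0.01, 0.013 and 0.043. Larp1, which binds TOP mRNAs, did not pass (0.18 ± 0.05, adjusted p = 0.055).

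Of 10 chaperones and assembly factors of single ribosomal proteins, 2 rose and 1 fell (20% and 10%, near the 15.5% and 13.8% of all genes). Pdcd2, the chaperone of Rps2, rose by 0.98 ± 0.06 (from 312 ± 19.5 to 618 ± 4.08, SD, n = 3, limma adjusted p = 0.00088), and its relative Pdcd2l by 0.23 ± 0.06. Rrs1, which helps load Rpl5 and Rpl11, fell by 0.27 ± 0.06 on the log2 scale. Rps2 read 2253 ± 23.8 untreated and 2295 ± 64.1 with 5AC and changed by 0.03 ± 0.05.

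Free Rpl5 and Rpl11 are known to inhibit Mdm2, which degrades p53. Of 3 measured genes of that circuit, 2 rose and 0 fell (66.7% and 0%, against 15.5% and 13.8% of all genes). Cdkn1a, a p53 target and inhibitor of the cell cycle, rose by 0.91 ± 0.06 (from 1294 ± 70.8 to 2427 ± 48.5, SD, n = 3, limma adjusted p = 0.00097). Mdm2 rose by 0.53 ± 0.05 (from 345 ± 7.18 to 500 ± 3.02, limma adjusted p = 0.0018). Mdm4 changed by −0.07 ± 0.06 and did not pass. Rps27l, a target in the same pathway, had the smaller change given above. Whether any of these changes is linked to ribosomal proteins was not tested.

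**Figure D5:**
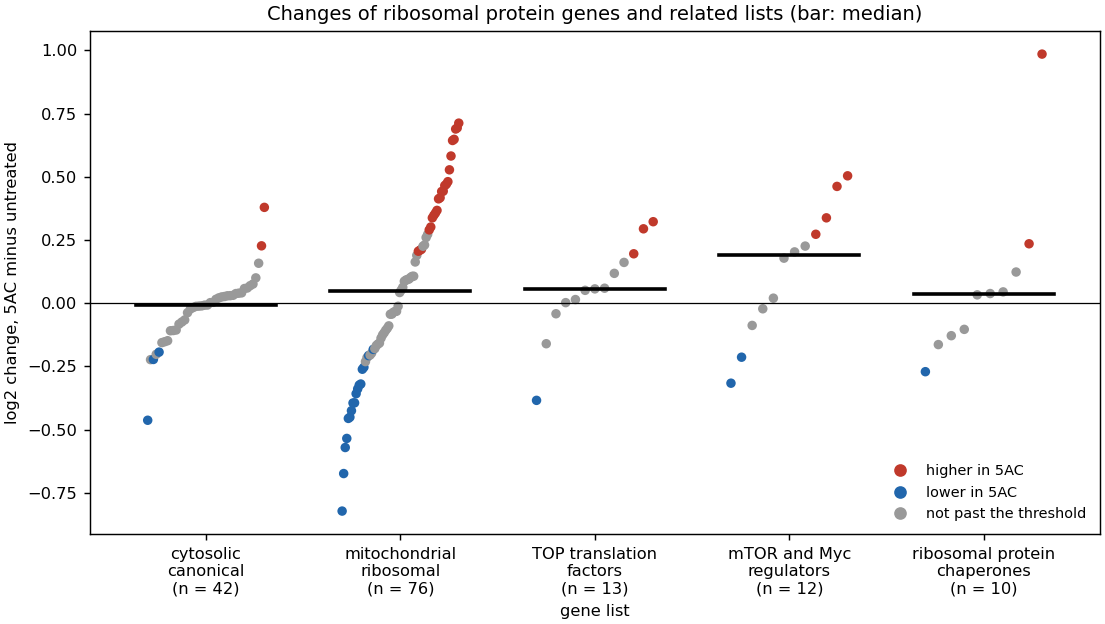
Log2 change, 5AC minus untreated, of each measured gene in 5 lists, sorted within the list, with the median as a bar and calls by colour. The 42 cytosolic genes lie within −0.46 to 0.38, and the 76 mitochondrial ones within −0.82 to 0.71.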

How the data were processed

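The authors deposited linear intensity values for each probe set and array, some of them below 0. Per the submitters' processing notes, GCOS 1.4 and R 2.4.1 were used, in roles that were left unstated. How background, summarization and normalization were handled is not given in the sources used here. Of the probe sets, 64 controls were left out; the platform annotation gave 34945 of the rest 1 gene symbol and 932 several. Values below 0 were set to 0 and analysed as log2(intensity + 1), so changes of dim genes depend on the offset. Each gene was taken from its probe set with the highest mean log2 value over the 6 arrays. The groups were compared by limma 3.58.1 (R 4.3.3), using lmFit and eBayes, two-sided, and p-values were adjusted by Benjamini-Hochberg over 18193 genes (or 45037 probe sets) and a threshold of 0.05. Promoter windows and figures used Python 3.11.15. The number of arrays limits the precision. The procedure was tested on simulated data of 18193 genes, in which 50 bright genes were changed at each size. For the comparison of 5AC with untreated it recovered 0% of genes changed by 0.25 and 68% of those changed by 0.5. It recovered 96% of those changed by 1 and 100% by 2. With the intensity trend these were 48%, 92%, 100% and 100%. In the data 29.3% of all genes were called, far more than were changed in the simulation, which made the simulated threshold stricter. These shares therefore do not carry over to the data, where Rpl37 was called at a change of −0.22.

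Members, lists and tests were chosen with earlier results of these data known. Genes named were each paralogue and parent, the 8 largest increases and decreases among canonical genes, the stalk genes, Rps6, Rpl5 and Rpl11, up to 3 called genes of each other list, and Larp1, Myc and Mdm2; Eef1a1, Eef2, Mdm4, Rps2, Rpl35, Rps15 and the genes with several probe sets were named after their values were seen. Alternatives tried were 3 scalings, the offset, the intensity limit, the choice of probe set, the moderation, the threshold, a replicate block and leaving out each array.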

Additional observations from a re-analysis of the deposited data

How the results depend on the processing

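The canonical median of −0.0077 was −0.027 with quantile normalization, −0.028 with median centring and 0.048 with cyclic loess, and −0.0079 to 0.0051 with 1 array left out. Canonical genes higher, 2 in the report, were 1 with the mean of a gene's probe sets or a threshold of 0.01, and 1 with any array left out. Canonical genes lower, 3 in the report, were 1 with cyclic loess, with a threshold of 0.01 and with any array left out, and 11 with the intensity trend or a mean of 200 or more. Calls over all 18193 genes moved as well, from 2821 higher and 2512 lower in the report. They were 1893 and 1870 with the mean of a gene's probe sets, and 3082 and 2326 with cyclic loess. With 1 array left out they were 1841 to 2475 higher and 1834 to 2065 lower. At 0.01 they were not counted. Paralogues lower, 1 in the report, were 2 (Rpl3l joined) with median centring, without untreated array 1 and, in a setting chosen after seeing the data, among genes above 0 on all arrays; the range with 1 array left out was 1 to 2. Paralogues higher stayed 3 in each of those, but were 2 at a threshold of 0.01 and 4 with the intensity trend. The call of Rpl7l1 was lost at 0.01 and with the replicate block. Member probe sets higher, 6 in the report, were 11 with the intensity trend, 3 at the threshold of 0.01 and 3 to 4 with 1 array left out. Those lower, 6 in the report, were 23 with the intensity trend or a mean of 200 or more, 3 at 0.01 and 4 to 6 with 1 array left out. The share of all probe sets was counted only for the fit in the report, so these counts cannot be set against it. Over genes, 29.3% were called in the report and 35.5% with the intensity trend. Among genes with a mean of 200 or more, fitted alone, 74.3% were called. The sign of 5 member genes turned with the mean of their sets and of 8 with the set without a suffix. Called with the turned sign were Rps20 (−0.56 and −1.22) and, with the set without a suffix, Rps24 (−0.56). The cause was not tested.

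Samples with the same replicate number correlated by 0.034, 0.017 and 0.11 in their deviations from the group means, so the numbers were not taken as pairs. With a replicate block, 0 canonical genes were higher and 1 lower, 2 paralogues were higher and 2 lower, and 0 member probe sets were called in either direction (in the fit without the block 6 and 6). Over all 18193 genes the block gave 1657 higher and 1559 lower, against 2821 and 2512 without it. The share of all probe sets with the block was not counted. Rps4l, Rpl39l, Rpl22l1 and Rpl14 passed in every alternative they entered. Each of them has 1 probe set, so the choice of probe set could not change their values. The groups of 3 arrays and an unknown normalization limit all results. In simulated data with few changed genes, a change of 0.25 was not recovered by the test used.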

Other observations

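The arrays carry control probe sets for 18S ribosomal RNA, which were left out of all tests. The set at the 5′ part read 1830.2, 2051.3 and 3469.1 in untreated arrays 1 to 3 and 1301.4, 1074 and 5530.3 in 5AC arrays 1 to 3. The middle set read 992, 1039.1 and 1846 untreated and 1238.4, 1090 and 2625.7 with 5AC, and the set at the 3′ part read 1547.5, 1643.4 and 2056.5 untreated and 1995.1, 1743.4 and 2855.6 with 5AC. In all 3 sets array 3 of each group was the highest of its group, and the groups overlapped.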
